A study of Equus caballus with 4 samples.

Results

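Amino acid transporters of the solute carrier (SLC) families SLC1, SLC3, SLC6, SLC7, SLC36, SLC38 and SLC43 were described in differentiating equine satellite cells with and without gamma-oryzanol (GO), a mixture of triterpene alcohol and sterol ferulates from rice bran. The rule that found the members reads gene symbols. The array carried 52 such symbols with 80 probes, out of 13350 symbols with 24962 probes. Among the 52, *slc7a6os* is a gene on the strand opposite to *slc7a6* that codes for no transporter of these families, and it was left out of all family counts (mean log2 ratio -0.08, limma adjusted p = 0.394). This left 51 genes: 6 of SLC1, 2 of SLC3, 16 of SLC6, 10 of SLC7, 4 of SLC36, 10 of SLC38 and 3 of SLC43.

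The cells were primary cultures from *m. semitendinosus* of horses, on the 3rd day of differentiation. GO-treated cells received 0.125 µM GO for the last 24 h, dissolved in DMSO, and control cells received DMSO at the same 0.04 µl/ml. Both groups grew in the same differentiation medium with a low share of horse serum. Each of 4 two-color arrays held RNA of GO-treated cells labeled with Cy5 and RNA of control cells labeled with Cy3. The methods describe muscle of 6 colts aged 6 months, a choice of the cell line with the best scores, and a choice of the RNA samples of highest integrity. The labels call the arrays biological replicates, but whether they hold different horses or separate cultures was not clear from the sources, so the p-values measure the spread between these 4 arrays. The dyes were never swapped and all 4 arrays lay on 1 slide, so a dye effect on a probe and an effect of GO cannot be told apart, and the slide could not be tested. Probes called well above background made up 63.5 to 68.9% of noncontrol spots in the control channel and 57.4 to 67.0% in the GO channel. With no more than 4 arrays the precision of each value is limited.

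Cells take up amino acids through carriers of different kinds. SLC1 and SLC38 carriers move acidic and neutral amino acids with sodium, SLC6 carriers take sodium and chloride with taurine, creatine, glycine and related substrates, SLC36 includes proton-coupled carriers of small amino acids, and SLC43 includes carriers that let large neutral amino acids pass without a coupled ion. The SLC7 light chains for neutral and cationic amino acids and cystine work in pairs with a glycoprotein heavy chain of SLC3, either *slc3a2* (CD98, 4F2hc) or *slc3a1* (rBAT). In growing muscle cells, leucine and glutamine that enter by such carriers act on the kinase complex mTORC1 at the lysosome, and cystine that enters through *slc7a11* supplies glutathione.

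The 7 probes printed here stand for members on which the description turns. They are the adjacent pairs of *slc3a1* and *slc38a2*, of which the former differed most among tested members, and the probes of the leucine carrier pair *slc7a5* and *slc3a2* and of the glutamine carrier *slc1a5*. Sequences are as the array files give them, 5′ to 3′ in lower case, with EquCab1 positions; each probe has 60 bases, and positions that span more cross an intron.
*slc3a1*, brightest probe, chr15:51007809-51007868, minus strand: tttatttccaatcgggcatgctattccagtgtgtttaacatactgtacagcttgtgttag
*slc3a1*, second probe, chr15:51007869-51007928, minus strand: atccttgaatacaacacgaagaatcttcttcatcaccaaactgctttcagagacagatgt
*slc3a2*, chr12:13447146-13447205, plus strand: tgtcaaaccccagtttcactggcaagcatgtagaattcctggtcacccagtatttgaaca
*slc7a5*, chr3:34394105-34395211, minus strand: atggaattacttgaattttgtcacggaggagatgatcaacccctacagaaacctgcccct
*slc1a5*, chr10:17080009-17080068, minus strand: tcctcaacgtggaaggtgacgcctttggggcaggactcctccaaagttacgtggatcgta
*slc38a2*, brightest probe, chr6:64450341-64450400, minus strand: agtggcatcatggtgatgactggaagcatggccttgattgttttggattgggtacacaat
*slc38a2*, second probe, chr6:64450401-64451330, minus strand: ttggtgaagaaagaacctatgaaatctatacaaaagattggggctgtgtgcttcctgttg
The 2 probes of *slc3a1* abut on the transcript, and so do those of *slc38a2*. GC content was 38.3% in both *slc3a1* probes, 45% and 40% in those of *slc38a2*, 45% in *slc3a2* and *slc7a5*, and 55% in *slc1a5*.

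A gene was represented by its brightest probe over both channels, and tested where that probe was well above background on all 4 arrays in the control or the GO channel. Of the 51 transporters 23 were tested, which is 45.1%, beside 67.8% of all genes with a symbol. All 23 met the filter in the control channel and 18 of them also in the GO channel. For 14 genes no probe was above background on any array in either channel, which is 27.5% of the transporters beside 18.5% of all genes. Among them were *slc1a1*, *slc6a6*, *slc7a8*, *slc7a9*, *slc7a10*, *slc36a2*, *slc38a4* and *slc38a11*. The families differed in how many members were measured: 7 of 10 SLC38 genes, 5 of 10 SLC7 genes, 4 of 6 SLC1 genes, both SLC3 genes, 2 of 3 SLC43 genes, 1 of 4 SLC36 genes and 2 of 16 SLC6 genes. SLC6 holds the carriers of neurotransmitters, and 7 of its 16 members were never above background. The other 14 transporters were above background on some arrays but too few to be tested, among them *slc1a2*, *slc7a14*, *slc36a3* and *slc38a3*. A gene not above background here has only a bound on its level.

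**Figure D1:**
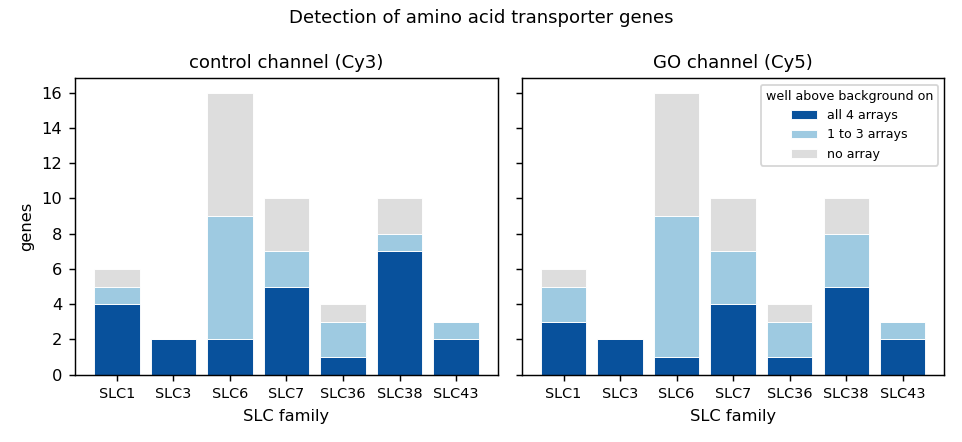
Number of amino acid transporter genes of each SLC family that were well above background on all 4 arrays, on 1 to 3 arrays or on no array, in the control channel (left) and the GO channel (right). In the control channel 23 of 51 genes reached all 4 arrays, and in the GO channel 18.

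No transporter passed both thresholds of the study's methods at its brightest probe. These were an adjusted p no higher than 0.05 together with a change of 1.3-fold or more. Across all 9057 tested genes 8.7% did so, with 3.33% higher and 5.37% lower in GO-treated cells. Transporters past the adjusted p alone numbered 2, *slc3a1* and *slc7a11*, where 17.3% of all tested genes passed (limma, Benjamini-Hochberg). At an unadjusted p under 0.05 there were 4 transporters, or 17.4%, beside 34.8% of all genes. The mean log2 ratios of GO over control ran from -0.35 to 0.26 with a median of 0.08, where all genes had a median of 0.003. They were positive in 14 and negative in 9. The median size of a transporter's ratio was 0.128 on the log2 scale and that of all genes 0.130. The spread between arrays was wider in the transporters, with a median SD of 0.176 against 0.15, and 6 of 23 had the same sign on all 4 arrays (26.1%), compared with 42.3% of all genes. The 95% interval of the mean lay wholly within a 1.3-fold change in either direction for 13 of 23 transporters (56.5%; all genes 63.8%). For the other 10 transporters the arrays did not settle whether the change was larger than that.

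**Figure D2:**
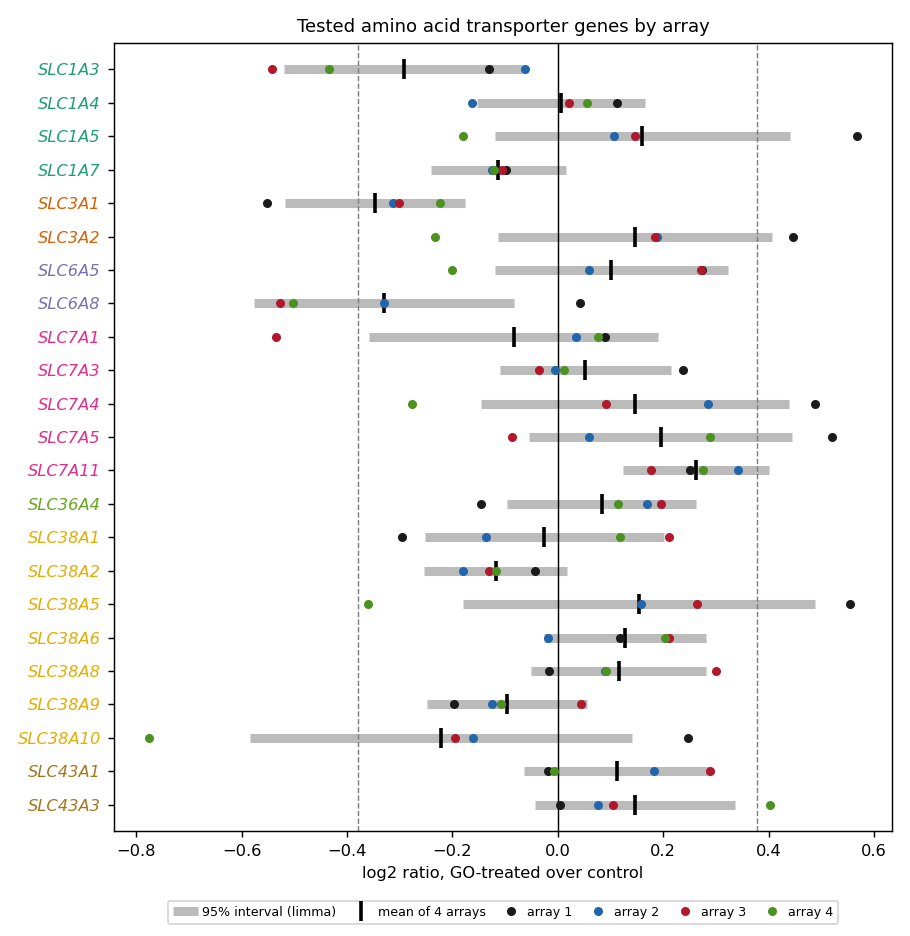
Log2 ratio of GO over control for the 23 tested transporter genes, with the 4 arrays as points, their mean as a tick and limma's 95% interval as a grey bar; name colors mark families and dashed lines mark 1.3-fold. *Slc3a1*, *slc1a3*, *slc6a8* and *slc7a11* have intervals clear of 0, and most other members spread across it.

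The heavy chains of SLC3 pair with SLC7 light chains at the plasma membrane. *Slc3a1*, the heavy chain of the cystine and dibasic amino acid carrier, had log2 ratios of -0.55, -0.31, -0.30 and -0.22 on arrays 1 to 4. Every array gave a lower value in GO-treated cells, with a mean of -0.35 ± 0.142 (SD, n = 4), 95% interval -0.52 to -0.18 and a limma adjusted p of 0.0233. The size of this change, 1.27-fold, fell short of the threshold. Its adjacent probe gave -0.53, -0.63, -0.67 and -0.11, a mean of -0.48 with an adjusted p of 0.0251 by limma, past both thresholds. That second probe was above background in the GO channel on 3 of 4 arrays. The light chain of *slc3a1*, *slc7a9*, was not above background on any array. Under normexp background correction with loess the brightest *slc3a1* probe had a mean of -0.15 and a limma adjusted p of 0.0721, and over all alternatives its adjusted p ranged from 0.0191 to 0.544.

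*Slc3a2*, the common heavy chain of the other SLC7 heterodimers, gave 0.45, 0.19, 0.19 and -0.23. Array 1 was highest and array 4 lay below 0. The mean was 0.15 with an interval of -0.11 to 0.41 (limma adjusted p = 0.377), and it was 0.047 without array 1 and 0.27 without array 4. Both SLC3 genes were tested, and their 95% intervals do not overlap.

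Of the SLC7 family, *slc7a11* and *slc7a5* are light chains of *slc3a2*, and *slc7a1* to *slc7a4* belong to the cationic amino acid branch. *Slc7a11*, the light chain of the cystine and glutamate exchanger, had log2 ratios of 0.25, 0.34, 0.18 and 0.28. All 4 arrays were above 0 and close together. The mean was 0.26 ± 0.068 (SD, n = 4), a 1.20-fold difference below the fold threshold, with an interval of 0.12 to 0.40 and a limma adjusted p of 0.0286. Among tested members, *slc1a7* and *slc38a2* alone had a smaller SD. Leaving out any 1 array lifted the adjusted p above the threshold, to between 0.0513 and 0.126, while the mean stayed between 0.23 and 0.29. Over all alternatives the adjusted p of *slc7a11* ranged from 0.0145 (limma with a trend) to 0.348 (limma after median centring without loess). *Slc7a5* (LAT1), the main carrier of leucine into many growing cells, gave 0.52, 0.06, -0.09 and 0.29. Arrays 1, 2 and 4 were above 0 and array 3 was below, with a mean of 0.20 and an interval of -0.05 to 0.45 (limma adjusted p = 0.227), and without array 1 the mean was 0.087.

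*Slc7a1* (CAT-1), which carries arginine and lysine, gave 0.09, 0.03, -0.54 and 0.08. Array 3 stood far below the other arrays, which lay close to 0, and the mean was -0.08 with an interval of -0.36 to 0.19 (limma adjusted p = 0.639). Without array 3 the mean was 0.07. The probe was above background in the GO channel on 2 of 4 arrays. *Slc7a4*, a member of the same branch, had ratios of 0.49, 0.28, 0.09 and -0.28 that crossed 0, and *slc7a3* (CAT-3) had a mean of 0.05. *Slc7a2* (CAT-2) was above background on 1 array in each channel and was not tested. The light chains *slc7a8* and *slc7a10* were never above background.

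SLC1 holds the glutamate carriers and the exchangers of small neutral amino acids. *Slc1a3* (GLAST), a sodium-coupled glutamate carrier, gave -0.13, -0.06, -0.54 and -0.44. All 4 arrays were below 0, arrays 3 and 4 furthest, and the mean was -0.29 with an interval of -0.52 to -0.07 (limma adjusted p = 0.0772). A second probe of this gene gave -0.40, -0.26, -0.53 and -0.50. That probe was lower on each array, with a mean of -0.42 and a limma adjusted p of 0.0116, past both thresholds. Both probes have the same sign, and the choice between them decides whether *slc1a3* is counted.

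*Slc1a5* (ASCT2), through which glutamine enters in exchange for other neutral amino acids, gave 0.57, 0.11, 0.15 and -0.18. Array 1 was highest and array 4 was below 0, and the mean of 0.16 had an interval of -0.12 to 0.44 (limma adjusted p = 0.368), and the mean was 0.024 without array 1 and 0.27 without array 4. *Slc1a4* (ASCT1), a carrier of alanine, serine and cysteine, had ratios of 0.11, -0.16, 0.02 and 0.06. Its mean was 0.01, and its interval of -0.15 to 0.17 lay inside a 1.3-fold change. *Slc1a7*, another glutamate carrier, had a mean of -0.11 with an SD of 0.0122, the smallest spread of the tested members (limma adjusted p = 0.18). This probe was dim, above background in the GO channel on 3 of 4 arrays.

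Only *slc6a5* and *slc6a8* of the SLC6 family were tested. *Slc6a8*, the creatine carrier by which muscle cells fill their creatine store, gave 0.04, -0.33, -0.53 and -0.50. Arrays 2 to 4 were below 0 and array 1 was not. The mean was -0.33 ± 0.262 (SD, n = 4), with an interval of -0.58 to -0.08 and a limma adjusted p of 0.0715. Without array 1 the mean was -0.45 and the gene passed both thresholds (limma adjusted p = 0.0216), where its adjusted p over all alternatives ran up to 0.487. *Slc6a5*, a glycine carrier, had a mean of 0.10 with an interval of -0.12 to 0.32. That probe was above background in the GO channel on 3 of 4 arrays. The gene's other probes, from the same stretch of the transcript, were above background on no array in either channel. The taurine carrier *slc6a6* was not well above background on any array in either channel, so its ratios are not interpreted.

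SLC36 carriers were mostly dim. *Slc36a4*, the tested member, carries proline and tryptophan without proton coupling and gave -0.15, 0.17, 0.20 and 0.11. Array 1 was below 0 and the others above, with a mean of 0.08 and an interval of -0.10 to 0.26 (limma adjusted p = 0.467). Its second probe had a mean of 0.09. *Slc36a1*, which moves amino acids with protons out of lysosomes and across the cell surface, was above background on 2 arrays in the control channel and 3 in the GO channel. Its ratios of 0.76, 0.26, 0.37 and 0.95 were all positive, but they were not tested, and the mean of 0.58 became 0.13 under normexp background correction with loess.

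SLC38 was the family with most tested members, 7 of 10. *Slc38a2* (SNAT2), the sodium-coupled carrier of small neutral amino acids that many cells raise when amino acids are short, gave -0.04, -0.18, -0.13 and -0.12. All were slightly below 0, with a mean of -0.12 and an interval of -0.25 to 0.02, inside a 1.3-fold change (limma adjusted p = 0.184). Its second probe had a mean of -0.06. *Slc38a1* (SNAT1), a related carrier of glutamine, gave -0.30, -0.14, 0.21 and 0.12. Arrays 1 and 2 lay below 0 and arrays 3 and 4 above, and the mean was -0.03 with an interval of -0.25 to 0.20. In the GO channel the *slc38a1* probe was above background on 3 of 4 arrays.

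*Slc38a9*, which reports lysosomal arginine to mTORC1, gave -0.20, -0.12, 0.04 and -0.11. The mean was -0.10 with an interval of -0.25 to 0.05, inside a 1.3-fold change (limma adjusted p = 0.318). *Slc38a10* gave 0.25, -0.16, -0.20 and -0.78. It had the widest spread of the tested members, from above 0 on array 1 to far below on array 4, with a mean of -0.22 ± 0.421 (SD, n = 4) and an interval of -0.58 to 0.14. Its mean was -0.037 without array 4 and -0.38 without array 1. *Slc38a5* (SNAT5) had a mean of 0.15, *slc38a6* of 0.13 and *slc38a8* of 0.12, and their intervals all included 0. In the GO channel the *slc38a8* probe was above background on 2 of 4 arrays.

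*Slc43a1* (LAT3), a carrier of large neutral amino acids, gave -0.02, 0.18, 0.29 and -0.01 at its brightest probe, a mean of 0.11 with an interval of -0.06 to 0.29 (limma adjusted p = 0.319). Its second probe gave 0.41, 0.26, 0.42 and 0.10. That probe was positive on all 4 arrays, with a mean of 0.30 and a limma adjusted p of 0.0383, below the fold threshold. *Slc43a3*, known as a carrier of purine nucleobases and kept here by its symbol, gave 0.00, 0.08, 0.10 and 0.40 and had a mean of 0.15, led by array 4. A second *slc43a3* probe was above background on 2 arrays in the control channel and 1 in the GO channel. It was not tested, and its ratios of -0.66, 0.05, 0.63 and -0.48 had a mean of -0.11. *Slc43a2* (LAT4), which carries large neutral amino acids like *slc43a1*, was above background on 3 arrays in the control channel and 1 in the GO channel, and was not tested.

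The transporters had 30 tested probes, and 7 genes had a pair of them. Counted by any tested probe, *slc1a3* and *slc3a1* passed both thresholds, both lower in GO-treated cells. These are 2 of 23 genes, or 8.7%, where 10.3% of all genes passed at any tested probe and 8.94% of all probes passed singly. The transporters' share thus lay near that of the array.

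**Figure D3:**
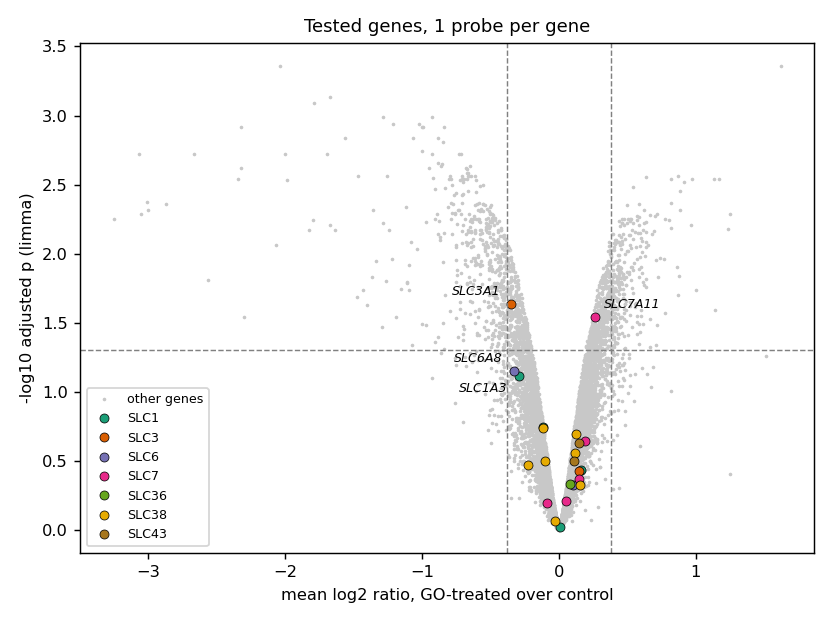
Mean log2 ratio of GO over control against -log10 of the limma adjusted p for 9057 tested genes, 1 probe each, with the 23 transporters colored by family; dashed lines mark an adjusted p of 0.05 and a 1.3-fold change. No transporter lies in the outer upper corners that hold 788 genes, and *slc3a1* and *slc7a11* lie above the horizontal line.

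Several transporters shared an order of the arrays. In *slc1a5*, *slc3a2*, *slc6a5*, *slc7a4*, *slc38a5* and *slc38a10* the ratio was highest on array 1 and lowest on array 4. These 6 are 26.1% of the tested transporters, and 18.7% of all tested genes had this order. The ratio on array 1 exceeded that on array 4 by 0.47 (*slc6a5*) to 1.02 (*slc38a10*) on the log2 scale. Over all tested genes this difference moved with the GC content of the probe: Pearson's r was 0.42 across 9057 genes and 0.40 across the 23 transporters, given as a description, since the genes share the same 4 arrays. Its median was -0.16 for probes of at most 40% GC, 0.07 for those above 40 and up to 50%, and 0.28 for those above 50%. The 6 transporters had probes of 43.3 to 55% GC, and the part of base composition in their ratios was not tested. *Slc7a11* and *slc3a1*, with probes of 35 and 38.3% GC, did not have that order. Their ratio on array 1 minus that on array 4 was -0.03 and -0.33, beside the median of -0.16 for probes of at most 40% GC. The part of base composition in these 2 genes was not tested either.

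**Figure D4:**
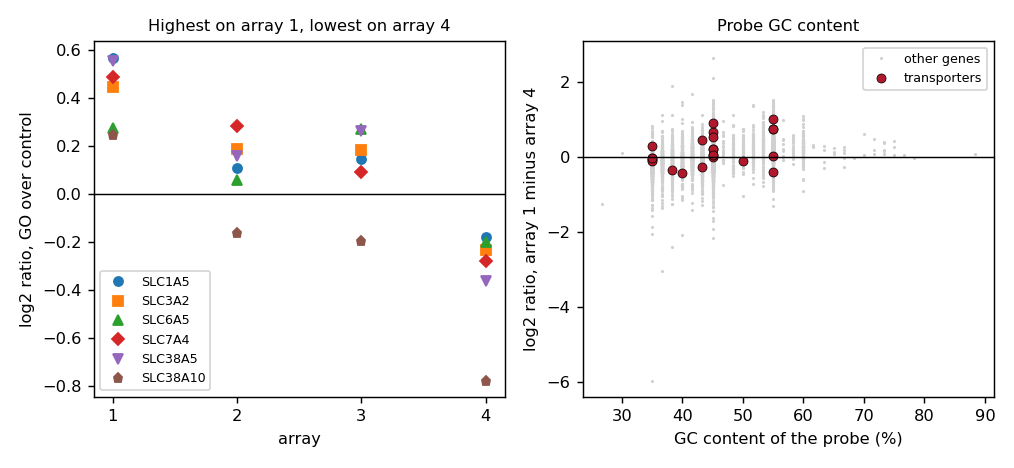
Left, log2 ratios on the 4 arrays for the 6 transporters that were highest on array 1 and lowest on array 4. Right, the ratio on array 1 minus that on array 4 against the GC content of the probe for all tested genes (grey) and the 23 transporters (red), with r of 0.42 over all genes.

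Genes around the transporters were read from the same fit. Their lists were chosen with earlier results of these data known, so the shares past the thresholds are a description only. Of 38 listed genes for amino acid sensing by mTORC1, 29 were found on the array by symbol and 28 were tested. Of the 28, 4 passed both thresholds (14.3%, beside 8.7% of all genes). *Sesn2*, a leucine-binding inhibitor of this pathway, was higher, with 0.41, 0.20, 0.64 and 0.52 and a mean of 0.44 (limma adjusted p = 0.0174). Its probe was above background on all 4 arrays in the control channel and on 3 in the GO channel. The other 3 genes past both thresholds were lower. *Rragd*, a Rag GTPase that brings mTORC1 to the lysosome, gave -0.93, -0.99, -0.68 and -0.80, a mean of -0.85 (limma adjusted p = 0.00225). *Flcn*, which acts on the nucleotide state of Rag GTPases, had a mean of -0.41 (limma adjusted p = 0.0291), and *depdc5*, a GATOR1 subunit, of -0.38 (limma adjusted p = 0.0428). The median of the 28 was -0.01.

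Of 38 listed enzymes that make or use the transported amino acids, 33 were tested and 5 passed both thresholds (15.2%, beside 8.7% of all genes). *Bcat2*, the mitochondrial branched-chain aminotransferase, was higher, with a mean of 0.41 (limma adjusted p = 0.0271), and *bcat1*, its cytosolic counterpart, was lower, with -0.41 (limma adjusted p = 0.0158). *Cdo1*, which oxidizes cysteine on the way to taurine, gave -0.98, -0.53, -0.63 and -0.52, a mean of -0.66 (limma adjusted p = 0.00703). *Gatm*, the first enzyme of creatine synthesis, had a mean of -0.50 (limma adjusted p = 0.0116), and *got1*, the cytosolic aspartate aminotransferase, of -0.43 (limma adjusted p = 0.0319). The median of the 33 enzymes was 0.04. A list of 19 symbols covered further transporters and accessory proteins, with some genes under both an older and a newer symbol. Of these, 15 were found on the array by symbol, 6 were tested and 0 passed both thresholds in limma. The adjusted p alone was passed by 3 of the 6, where 17.3% of all tested genes passed. An unadjusted p under 0.05 was found for 3 of the 6, beside 34.8% of all genes. Without array 3 the count over the 3 lists fell from 9 to 3, without array 2 to 5, and under normexp background correction with loess to 2.

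**Figure D5:**
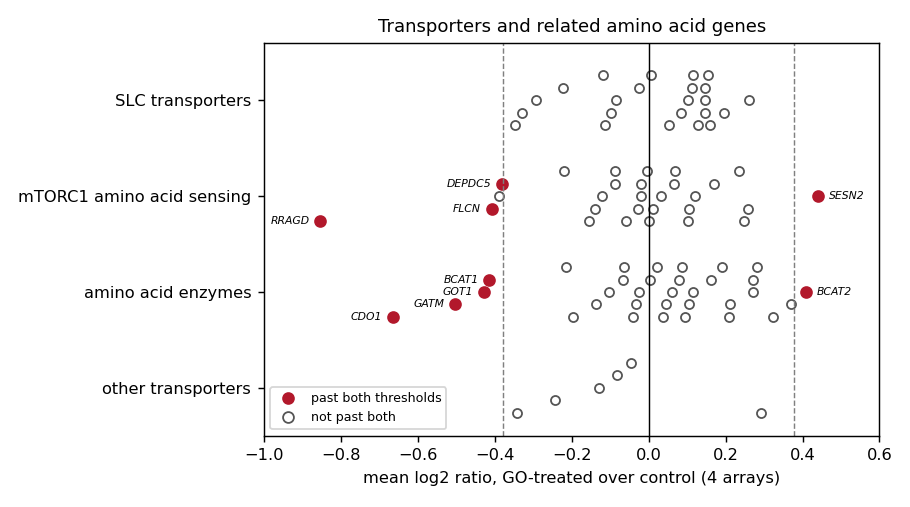
Mean log2 ratio of GO over control, 4 arrays, for the tested SLC transporters and for the related genes of 3 lists, 1 point per gene with points spread vertically for legibility; filled points passed an adjusted p of 0.05 and a 1.3-fold change (dashed lines). The 9 named genes include *rragd* at -0.85 and *sesn2* at 0.44, and no SLC transporter is filled.

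Markers of the labelled cell type were present: all 6 myogenic genes on the array with a symbol (*ckm*, *des*, *myf5*, *myh3*, *myod1* and *myog*) were above background on every array. Their mean log2 ratios ran from -0.93 to -0.30. Both thresholds were passed by 4 of the 6, all lower in GO-treated cells, where 8.7% of all tested genes passed, 5.37% as lower. Of 6 fibroblast markers, all above background, *pdgfra* was higher and passed both thresholds (0.87, limma adjusted p = 0.0198). The ratios of the rest lay between -0.10 and 0.08. Endothelial and adipocyte markers, 4 and 3 genes, were not above background on any array, and 2 of 5 leukocyte markers, *cd14* and *cd68*, were measured, neither past the thresholds. In RNA of a whole culture, fewer cells of a type and less RNA per cell cannot be told apart, and the part of cell composition in the transporter ratios was not tested.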

How the data were processed

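The authors scanned 4 two-color arrays and processed them with Feature Extraction. Per the file headers the version was 10.10.1.1, whereas the methods state another. The deposited intensity values of each channel had been background-subtracted, detrended and dye-normalized (linear and lowess), and the deposited log10 ratios are those of Cy5 (GO) over Cy3 (control). The authors' table of the series held the same log10 ratios in 180880 of 180880 values.

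Ratios were converted to log2. Control spots and 10 to 19 outlier spots per array were left out, no spot was saturated, and spots of 1 probe were averaged. Of 43603 probes 26831 were tested, those well above background on all 4 arrays in the GO or the control channel. The test was limma (version 3.58.1, R version 4.3.3), lmFit on an intercept and eBayes, two-sided, with Benjamini-Hochberg adjustment over all tested probes, and was tested on simulated data. Thresholds were an adjusted p of 0.05 and a fold change of 1.3, a log2 ratio of 0.38. Ratios of dim probes rest on floor values and were not interpreted. Figures were drawn with matplotlib (version 3.10.9).

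The channels of an array were hybridized together and are paired by the ratio. Their deviations from the channel means correlated at 0.48 to 0.86 within an array and at -0.54 to 0.24 between arrays. Centring each channel on its own mean lowers the correlations between arrays, and channels of an array share spots and dye normalization. These values therefore cannot show whether the cultures themselves were paired.

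The set of families and the gene lists were chosen with earlier results of these data known; a gene entered the set by its symbol. Members described with values were the member of largest mean ratio in each family, listed carriers of growing cells and members past a threshold. Further tested members were given for completeness. Most members too dim to test are given as counts, and 1 of these is not reported here by name. *Slc7a6* has no symbol in the files, and its values stand in the closing section by its description. Alternatives were normexp (offset 50) with loess, median centring, the table of the series, filters, tests, probe choice, no block and leaving out arrays. Positions are EquCab1.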

Additional observations from a re-analysis of the deposited data

Results flagged for a closer look

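*Slc7a1* on array 3 had a log2 ratio of -0.54, far from the other arrays, which gave 0.09, 0.03 and 0.08. The gap to the nearest array was 0.913 of the whole range of the 4 arrays. Of 20 named transporters examined in this way 1 stood out, and chance alone marks about 1 group in 20. In the GO channel its signal cleared the background on 2 of 4 arrays.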

How the results depend on the processing

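No transporter passed both thresholds at its brightest probe under normexp with loess, median centring, the table of the series, both other filters on dim probes, the plain test, limma with a trend, the brightest probe of the control channel, added symbols, or without array 2 or 3. The count was 1 without array 1 (*slc6a8*, -0.45) and 1 without array 4 (*slc3a1*, -0.39), so that leaving out 1 array gave 0 to 1. It was 1 by fold alone over the median of a gene's tested probes (*slc3a1*) and 2 where any probe counted (*slc1a3*, *slc3a1*), the last chosen after seeing the data. With no replicate block, that is with the channels unpaired, 0 transporters and 914 probes passed, against 2399 with the ratio.

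All probes past both thresholds numbered 1297 under normexp with loess, 368 under median centring without loess (347 higher and 21 lower, beside 894 and 1505), 908 without a filter on dim probes, 147 with the plain one-sample test, and 1566 to 2430 with 1 array left out. With no replicate block 244 were higher and 670 lower. The related genes past both thresholds fell from 9 to 2, 0, 1 and 0 under the first 4 of these settings, to 3 with no replicate block, and to 3 to 7 with 1 array left out. The causes were not tested.

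Directions turned in members with means near 0. *Slc1a4* went to -0.037 under normexp and -0.067 under median centring, *slc38a1* to 0.0079 and 0.038, and *slc38a2* to 0.024 under median centring. With 1 array left out, *slc1a4* lay between -0.029 and 0.063 (below 0 without array 1 or 4), *slc7a1* between -0.14 and 0.066 (above 0 without array 3), and *slc38a1* between -0.11 and 0.064 (above 0 without array 1 or 2). Over the named members tested, no other direction turned. The median ratio of all tested probes moved by under 0.1 in every setting. Signal over background gave only a bound for the 14 transporters never above it.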

Other observations

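Some probes without a symbol were described in the array files as members of the same families, and they were added after the data had been seen. *Slc7a6*, a light chain of *slc3a2* for cationic and neutral amino acids, had log2 ratios of 0.52, 0.23, 0.24 and 0.04 at one probe, with a mean of 0.26 and a limma adjusted p of 0.0832. A second probe had a mean of 0.18 (limma adjusted p = 0.138). Both probes were positive on all 4 arrays and neither passed the thresholds.

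*Slc7a7*, the light chain of *slc3a2* that exports cationic amino acids, was measured by 3 overlapping probes. Their means were -0.25, -0.34 and -0.23, with limma adjusted p of 0.0892, 0.0464 and 0.130. The probe past the adjusted p gave -0.58, -0.37, -0.32 and -0.07, below 0 on every array and below the fold threshold.

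*Slc38a7*, a carrier of glutamine, was not well above background on any array in the control channel and was so on 3 arrays in the GO channel. It was not tested. The deposited ratios had a mean of 1.81 on the log2 scale and normexp background correction with loess gave 0.27, so no fold is given. *Slc1a6* was tested with a mean of -0.05 (limma adjusted p = 0.853), and *slc6a3*, *slc6a16* and *slc7a13* were too dim to test.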
